A study of Mus musculus with 23 samples.

Results

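The rim of a fresh ear wound was compared between cub and wild-type mice at 2 h after the punch. The samples were the 6 arrays labelled with that time, 3 of each genotype, out of 23 arrays in the series, and the comparison ran over all 19938 genes that carried a single gene symbol. Wild type was Rhbdf2+/+ on C57BL/6J, and cub was Rhbdf2cub/cub of the strain B6.Cg-Rhbdf2cub/J. All mice were females at 4 weeks of age. A hole of 2 mm went through the ear, and a biopsy punch of 3 mm then took the 1 mm of tissue around it, so each sample held epidermis, dermis, cartilage, muscle, fat, vessels and blood cells of the wound edge together. The labels call the 3 arrays of a group biological replicates. The cub mice are a congenic strain and carry the allele in every cell, so other sequence around the locus and effects present before the wound belong to the genotype as compared here.

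Rhbdf2 encodes iRhom2, an inactive rhomboid protein of the endoplasmic reticulum that carries the protease ADAM17 to the cell surface. ADAM17 cuts membrane-bound ligands of the EGF receptor and tumour necrosis factor free, and in skin this pathway governs growth and differentiation of keratinocytes and the response to injury. The cub allele removes part of the cytoplasmic end of iRhom2, and mice with 2 copies have little hair and close ear holes faster than wild type. In the first hours of a skin wound, clotting, immediate early transcription and the entry of neutrophils come before new matrix is laid down.

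Values are log2 RMA levels, and each difference is cub minus wild type with its standard error. A gene is said to be higher or lower only where the adjusted p of limma, over all genes, was under 0.05. By that rule 880 genes differed at 2 h, 4.41% of those tested, with 765 higher in cub (3.84%) and 115 lower (0.577%). Of these, 17 differed at least 2-fold (0.0853%), 13 higher (0.0652%) and 4 lower (0.0201%). Groups did not overlap for 870 of the called genes, or 4.36% of all, while 20.9% of all genes, called or not, had groups that did not overlap (13.6% higher, 7.28% lower). The genes of largest difference were picked among called genes without overlap. For them, as for nearly all called genes, separate groups are a description and no further support. The median difference over all genes was 0, and the quartiles were −0.07 and 0.08. Scaling changed the balance: centring each array on its median gave 591 higher and 177 lower, and quantile normalization over the tested genes gave 524 and 269. The counts also rested on single arrays, with 514 genes called without wild-type replicate 2, 402 without wild-type replicate 3 and 329 without cub replicate 1. Each count of list or family members called at 2 h is to be read beside 3.84% of all genes higher and 0.577% lower. In this bulk tissue, more cells of a type and more RNA per cell cannot be told apart.

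Defining markers of the labelled ear tissue were present. The keratins of the basal epidermis, Krt5 and Krt14, were at 12.96 ± 0.05 and 12.68 ± 0.01 in cub and at 12.92 ± 0.02 and 12.68 ± 0.04 in wild type (SD, n = 3 each). Krt10 of the upper epidermis was at 13.16 ± 0.06 and 13.22 ± 0.02. The cartilage gene Acan was at 9.93 in cub and 9.87 in wild type, and the muscle actin Acta1 at 12.26 and 12.16. Genes of other organs were low, with Alb of the liver at 4.73 and 5.15 and Ins2 of the pancreas at 5.67 and 5.73, though Alb was called lower in cub (−0.41, adjusted p = 0.0162). Rhbdf2 itself was level at this time, at 9.14, 8.93 and 8.93 in cub and 9.03, 8.95 and 9.02 in wild type, a difference of 0.00 ± 0.09 (adjusted p = 1). Where its probes lie relative to the cub deletion was not examined, so this level does not check the genotype labels.

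Epidermal genes were found in both directions, while the main keratins above did not differ. Krt77, a type II keratin of differentiated skin cells, read 12.22, 12.44 and 12.40 in cub and 10.86, 11.36 and 11.49 in wild type. Every cub array was above every wild-type array, and the difference of 1.12 ± 0.20 was 2.17-fold (adjusted p = 0.00217). Krt1, the partner of Krt10 in the suprabasal layers, read 11.91, 12.40 and 12.27 against 11.49, 11.34 and 11.46, again without overlap (0.76 ± 0.12, adjusted p = 0.000796). In unwounded ears Krt1 differed by 1.14 (adjusted p = 1.27e-05). Sprr4, a cross-linked protein of the cornified envelope, was at 10.13 ± 0.30 in cub and 9.14 ± 0.20 in wild type (adjusted p = 0.00667). The kallikrein protease Klk8, which acts in the outer epidermis, was higher by 0.63 ± 0.08 (adjusted p = 0.000124). Of 22 kallikrein genes tested, 7 were higher and 0 lower, a family looked at after the values were seen. Krt24, a keratin of differentiating cells, moved the other way: its cub arrays read 11.11, 11.23 and 11.09 and its wild-type arrays 12.18, 12.01 and 12.10. It was lower in cub by 0.95 on the log2 scale, or 1.94-fold (adjusted p = 3.02e-05).

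As a list, epidermal differentiation genes had 9 members higher and 1 lower of 48 tested, with a median difference of 0.12, against 3.84% and 0.577% of all genes and their median of 0. Without cub replicate 1, 5 were higher. In unwounded ears 16 of the 48 were called higher and 4 lower, beside 3.33% and 1.93% of all genes, with a median of 0.19. Basal keratinocyte markers showed 1 higher and 2 lower of 17, with a median of −0.10, and wound-edge keratinocyte genes 2 higher and 0 lower of 27. The members higher at the wound edge were Itga5, the fibronectin receptor chain (0.61 ± 0.09, adjusted p = 0.000787), and Plaur, the urokinase receptor (0.56 ± 0.12, adjusted p = 0.00805). Plaur was not called without cub replicate 1 (adjusted p = 0.0689), which left 1 of the 27. Sebaceous gland markers had 2 higher of 20. Awat2, which makes wax esters of sebum, read 9.27, 8.53 and 8.28 in cub and 7.41 to 7.52 in wild type (1.23 ± 0.21, adjusted p = 0.0019). The desaturase Scd3 read 10.61, 9.77 and 9.44 against 8.59 to 8.72 (1.27 ± 0.36, adjusted p = 0.0459), a call that ended without any 1 of wild-type replicates 1, 2 and 3 or cub replicates 1 and 2 (adjusted p = 0.121, 0.11, 0.118, 0.288 and 0.0694). The other sebaceous markers did not pass, and the list's median was −0.05. Both genes were also called higher before 2 h. Scd3 differed by 2.48 at 0 h (adjusted p = 0.000348) and 2.87 at 15 min (adjusted p = 0.000884). Awat2 differed by 1.39 (adjusted p = 0.000709) and 1.56 (adjusted p = 0.00193). At 0 h the sebaceous list had 2 members higher and 4 lower, beside 3.33% and 1.93% of all genes. None of 30 hair follicle markers was called. Krt25, a keratin of the inner root sheath, read 7.19, 6.55 and 7.28 in cub and 5.74 to 5.92 in wild type, without overlap, but its spread over all groups kept it above the threshold (1.19 ± 0.35, adjusted p = 0.0552). It passed without cub replicate 2 (adjusted p = 0.0414), and over all alternative fits its adjusted p ran from 0.00464 to 0.213.

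**Figure D1:**
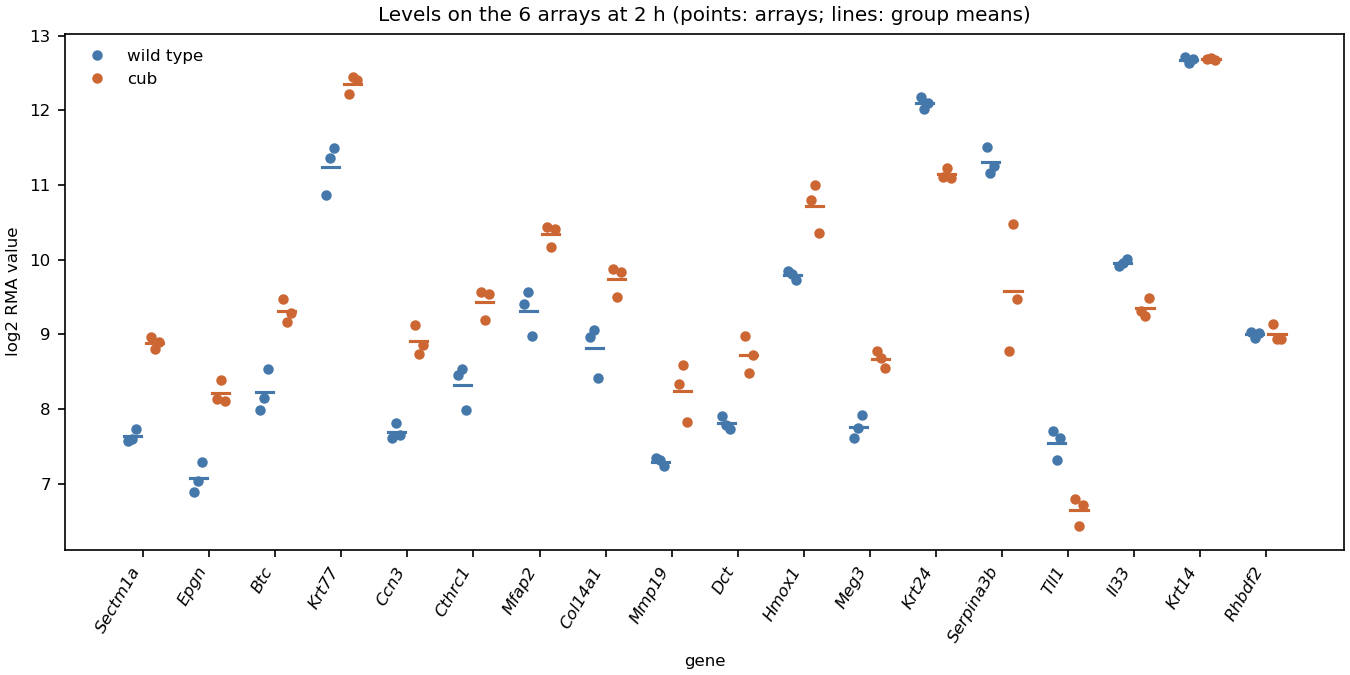
Log2 RMA levels (y axis) of 18 genes (x axis) on each of the 6 arrays at 2 h, with points for arrays and lines for group means of 3. The groups do not overlap for Sectm1a, Epgn, Krt77 or Krt24, and lie on one another for Krt14 and Rhbdf2; levels of different genes come from different probes and are not comparable.

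The EGF receptor family signals through ligands that are shed from the cell surface, and 2 of its ligands were higher. Epgn, which encodes epigen, read 8.13, 8.39 and 8.10 in cub and 6.89, 7.04 and 7.29 in wild type. The groups lay apart by more than their own widths, a difference of 1.13 ± 0.16 or 2.19-fold (adjusted p = 0.000389). Btc, betacellulin, read 9.47, 9.16 and 9.29 against 7.98, 8.15 and 8.53 (1.09 ± 0.19, adjusted p = 0.00182). These were the only members called among 10 ligands tested, and both stayed called without each single array. The ligand gene Areg, amphiregulin, had no row with a single gene symbol, so it was not tested. Neither was confined to the wound, since unwounded cub ears had 6.61 for Epgn against 5.61, and 9.04 for Btc against 7.73. From 0 h to 2 h Epgn rose in both genotypes, by 1.60 in cub (adjusted p = 6.32e-07) and by 1.47 in wild type (adjusted p = 2.65e-06). The test of the difference between these changes was not passed (0.13, adjusted p = 0.896).

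Receptors and sheddases differed little. Egfr was at 10.30 ± 0.07 in cub and 10.30 ± 0.03 in wild type. Adam17 differed by 0.09 ± 0.06 (adjusted p = 0.442), and Rhbdf1, the other iRhom gene, by 0.11 ± 0.07 (adjusted p = 0.473). Of 20 iRhom, sheddase and ErbB receptor genes, the protease genes Adam8 (0.48 ± 0.13, adjusted p = 0.0425) and Adam10 (0.22 ± 0.06, adjusted p = 0.0398) passed. Without single arrays, at most 1 of the 20 passed. Adam8 was lost without wild-type replicates 1, 2 and 3 and cub replicates 1 and 3, at adjusted p = 0.0915, 0.1, 0.132, 0.234 and 0.0781. Adam10 was lost without any single array, at adjusted p = 0.0521 to 0.188. Downstream, 1 of 20 MAPK feedback genes was called, near the 4.41% of all genes. It was the phosphatase Dusp10 (0.27 ± 0.07, adjusted p = 0.0248), which was lost without any array but wild-type replicate 2 (adjusted p = 0.0551 to 0.105). Tnf, whose product ADAM17 also cuts free, was at 6.46 ± 0.12 and 6.26 ± 0.07 (0.20 ± 0.11, adjusted p = 0.352).

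Immediate early genes, which are transcribed within minutes of injury, were higher at 2 h than in unwounded ears in both genotypes. No hole, biopsy or rim size is recorded for the samples at 0 h, so the wound and the way of sampling cannot be told apart. Of 30 tested, 28 were higher at 2 h than at 0 h in cub and 29 in wild type, beside 7.66% and 3.98% of all genes. Called in either direction between these times were 11.9% of all genes in cub and 7.97% in wild type. Between the genotypes at 2 h, only Arc was called. This effector gene, best known from neurons, read 8.80, 8.70 and 8.60 in cub and 7.58, 7.52 and 7.60 in wild type. The tight, separate groups gave a difference of 1.13 ± 0.15, or 2.19-fold (adjusted p = 0.000164). Fos read 9.92 to 9.93 in cub and 10.16 to 10.34 in wild type, and Egr1 10.73 to 10.82 and 11.01 to 11.07. Both had every cub array below every wild-type array, as 20.9% of all genes had groups that did not overlap in one direction or the other. Neither passed in the fit of all groups (−0.31 ± 0.26, adjusted p = 0.607, and −0.26 ± 0.14, adjusted p = 0.37), and both passed in the fit of the 6 arrays alone.

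Many of the genes higher in cub make or shape the extracellular matrix of the dermis. Of 22 fibrillar collagens and collagen-processing genes, 16 were higher and 0 lower, beside 3.84% and 0.577% of all genes, with a median of 0.33. Col3a1 read 11.30, 11.03 and 11.23 in cub and 10.50, 10.61 and 10.38 in wild type, without overlap (0.69 ± 0.10, 1.61-fold, adjusted p = 0.000384). Both chains of type I collagen were higher by similar amounts, Col1a1 by 0.55 ± 0.10 (adjusted p = 0.00261) and Col1a2 by 0.54 ± 0.10 (adjusted p = 0.00217). Col5a2, a chain that nucleates the fibrils, was at 8.33 ± 0.01 against 7.77 ± 0.05 (adjusted p = 9.74e-06). The enzymes and chaperones that make collagen moved with its chains. Serpinh1, the collagen chaperone HSP47, read 9.17, 9.13 and 9.13 in cub and 8.63, 8.57 and 8.31 in wild type (0.64 ± 0.08, adjusted p = 0.000147). P4ha2, a prolyl hydroxylase, was higher by 0.57 ± 0.10 (adjusted p = 0.00192). Without wild-type replicate 3 or cub replicate 1, 9 of the 22 were called. Among 23 other collagen chains 7 were higher and 1 lower, with a median of −0.04; the count of those higher was 4 without either of these arrays. Those higher were led by Col14a1, a fibril-associated collagen (9.87, 9.50 and 9.83 against 8.96, 9.06 and 8.42; 0.92 ± 0.15, adjusted p = 0.00099), and Col6a3 of the microfibrillar network (0.62 ± 0.07, adjusted p = 3.02e-05). The lower one, Col17a1, anchors basal keratinocytes (−0.23 ± 0.06, adjusted p = 0.0223) and was lost without wild-type replicates 1 and 3 and cub replicates 1 and 3, at adjusted p = 0.0689, 0.107, 0.0967 and 0.0704.

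Elastic fibre genes all pointed one way. All 19 tested elastic fibre and lysyl oxidase genes had differences above 0, 14 were higher, and the median was 0.50. Mfap2, a microfibril protein, read 10.44, 10.17 and 10.41 in cub and 9.40, 9.57 and 8.97 in wild type (1.03 ± 0.14, 2.04-fold, adjusted p = 0.00016). Its cub arrays stood above all wild-type arrays, of which replicate 3 was the lowest. Mfap5 was at 10.10 ± 0.01 against 9.19 ± 0.11 (adjusted p = 0.000124). Elastin, Eln, was at 10.30 ± 0.07 against 9.57 ± 0.09 (adjusted p = 0.000482), and the cross-linking enzyme Lox at 10.83 ± 0.10 against 10.26 ± 0.10 (adjusted p = 0.0033). Without wild-type replicate 3, 8 of the 19 were called.

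Proteoglycans and glycoproteins of the dermis had 17 higher and 0 lower of 37, with a median of 0.25, and 9 higher without wild-type replicate 3 or cub replicate 1. Ccn3, a matricellular growth regulator, read 9.13, 8.73 and 8.85 in cub and 7.61, 7.81 and 7.65 in wild type. That gap of 1.21 ± 0.11, or 2.32-fold (adjusted p = 6.89e-06), was wider than the range within either group. Cthrc1, a secreted protein of activated fibroblasts, read 9.57, 9.19 and 9.54 against 8.45, 8.53 and 7.99 (1.11 ± 0.12, adjusted p = 2.08e-05). Vcan, the large proteoglycan versican of provisional matrix, was higher by 0.86 ± 0.11 (adjusted p = 0.000124), and Tnc, the wound glycoprotein tenascin C, by 0.74 ± 0.12 (adjusted p = 0.000897). Dcn, decorin, did not pass, at 13.03 ± 0.03 and 12.98 ± 0.04 (adjusted p = 0.687). Outside the lists, C1qtnf3, a secreted protein of the C1q and TNF family, read 8.55, 8.22 and 8.44 against 7.47, 7.49 and 7.24 (1.00 ± 0.11, adjusted p = 2.21e-05). Kdelr3, which returns chaperones to the endoplasmic reticulum, was higher by 0.94 ± 0.12 (adjusted p = 9.75e-05) and was picked after its value was seen.

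Of 22 fibroblast markers 10 were higher and 12 did not pass, while all 22 had differences above 0, with a median of 0.30; 5 were higher without wild-type replicate 3 or cub replicate 1. The mean of the list ran from 9.16 to 9.25 over the cub arrays and from 8.77 to 8.91 over the wild-type arrays, so the groups did not overlap. Islr, a surface protein of stromal cells, was at 9.11 ± 0.04 against 8.24 ± 0.20 (adjusted p = 0.000453), Dpp4 at 7.26 ± 0.13 against 6.65 ± 0.14 (adjusted p = 0.00177), and the dermal transcription factor Twist2 at 9.19 ± 0.13 against 8.63 ± 0.19 (adjusted p = 0.00362). The receptor Pdgfra, a defining marker, was at 9.26 ± 0.04 against 8.94 ± 0.15 and did not pass (adjusted p = 0.101). The part of fibroblast content in the matrix differences was not tested. None of 28 muscle markers and none of 18 adipocyte markers was called, with medians of −0.05 and −0.22. Of the adipocyte markers 2 had differences above 0, and up to 4 were lower when a single array was left out. Outside the muscle list, the myosin light chain gene Myl3 was lower in cub (−0.73, adjusted p = 0.00749). Its call was lost without wild-type replicate 2 or cub replicate 1. From 0 h to 2 h, 9 muscle and 8 adipocyte markers fell in cub and 0 in wild type, beside 4.28% and 4% of all genes. No marker of either list passed the test of the 2 h difference against the 0 h difference. Of 22 cartilage markers, Col11a1 (0.24 ± 0.06) was called higher and Matn3 (−0.37 ± 0.08) lower. Col11a1 was lost without any single array (adjusted p = 0.0506 to 0.179). Matn3 was lost without wild-type replicates 1 and 3 and cub replicate 1 (adjusted p = 0.0614, 0.0551 and 0.11). Adipoq, the adipocyte hormone gene, ranged from 7.71 to 8.65 in cub and from 8.42 to 8.74 in wild type, so that groups overlapped.

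Matrix proteases and inhibitors had 8 higher and 1 lower of 28, and 6 to 9 higher without each single array. Mmp19 read 8.33, 8.59 and 7.82 in cub and 7.34, 7.31 and 7.23 in wild type (0.95 ± 0.15, adjusted p = 0.00105). Timp1, an inhibitor of these enzymes, read 9.68, 9.82 and 9.48 against 8.79, 8.93 and 9.03 (0.74 ± 0.14, adjusted p = 0.00362). Every cub array was above every wild-type array in both genes. Mmp23, a membrane-released member, was higher by 0.78 ± 0.13 (adjusted p = 0.00124), and Mmp28, an epidermal member, was lower at 8.19 ± 0.04 against 8.60 ± 0.01 (−0.41 ± 0.08, adjusted p = 0.00269). Tll1, a protease of the family that trims procollagen, also lay outside the rise of collagen genes: it read 6.80, 6.43 and 6.72 against 7.71, 7.31 and 7.61 (−0.89 ± 0.09, adjusted p = 2.08e-05).

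**Figure D2:**
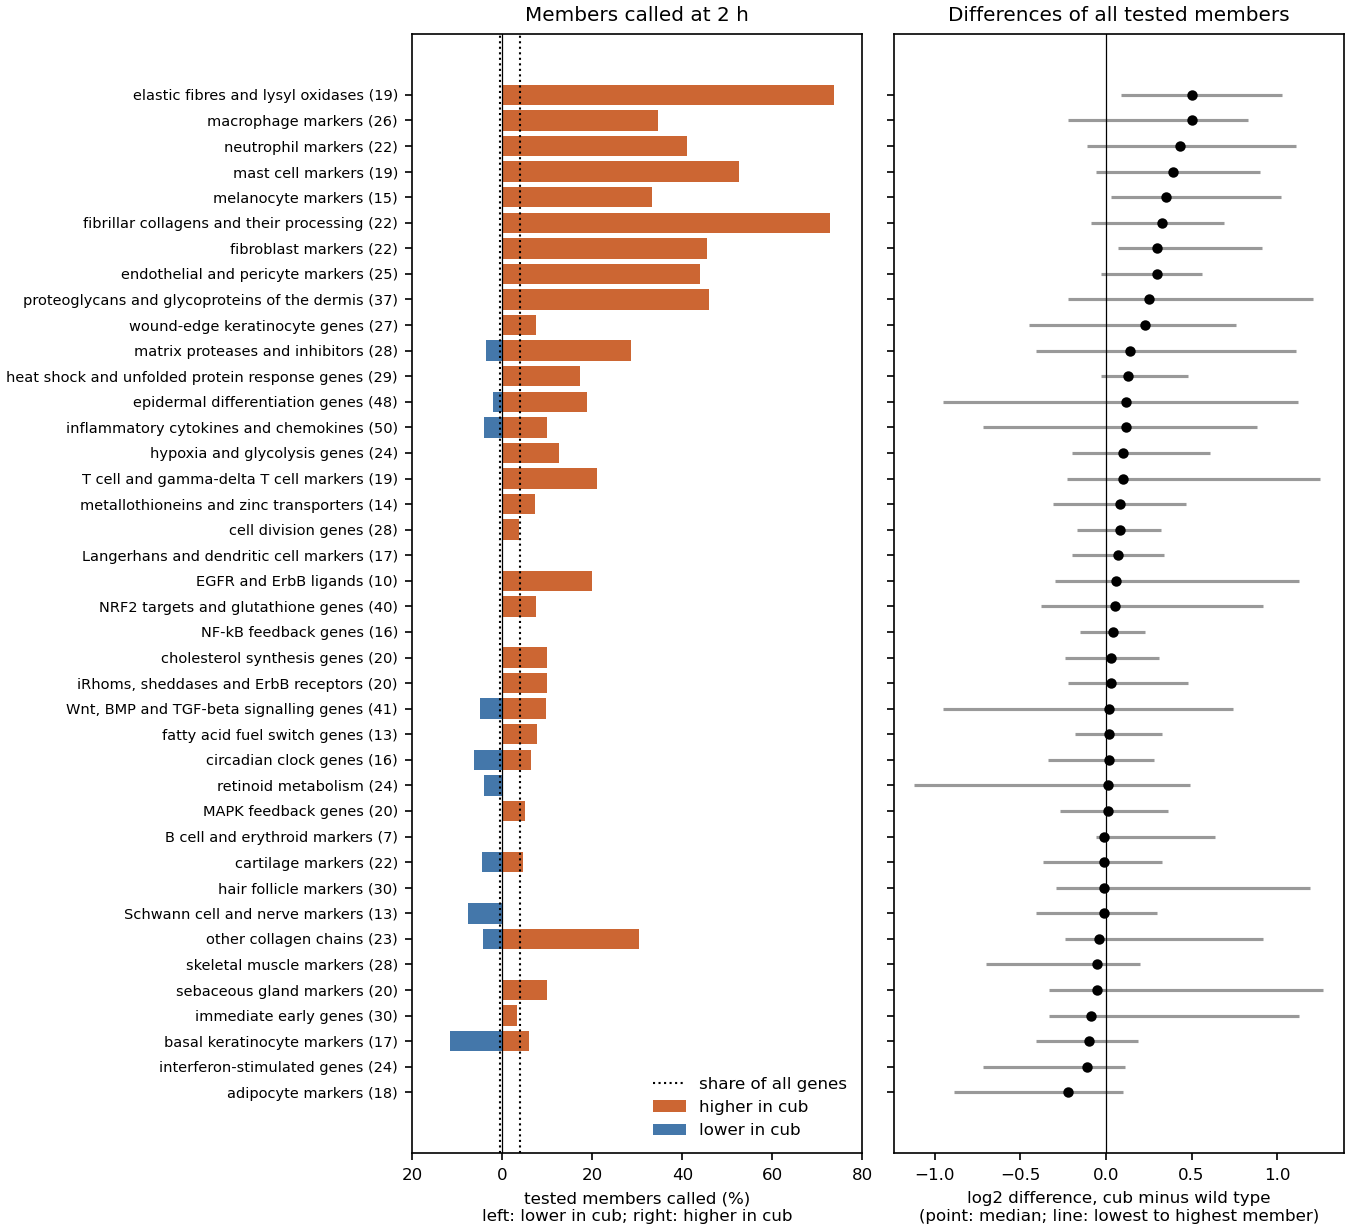
For each of 40 gene lists (number tested in brackets), the percent of members called lower or higher in cub at 2 h beside the share of all genes (left, dotted lines at 3.84% and 0.577%), and the log2 differences of all tested members with their median (right). Elastic fibre genes have 14 of 19 members higher and a median of 0.50, while muscle and adipocyte markers have none called.

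White blood cells enter a wound in order, neutrophils first, and markers of several kinds were higher in cub at 2 h. In unwounded ears 1 of 22 neutrophil, 3 of 26 macrophage and 2 of 19 mast cell markers were called higher, beside 3.33% of all genes. Their medians there were 0.04, 0.20 and 0.22. No marker in these lists passed the test of the 2 h difference against the 0 h difference. Of 22 neutrophil markers 9 were higher, with a median of 0.43. Mmp8, the neutrophil collagenase, read 6.23, 5.72 and 6.37 in cub and 5.48, 4.83 and 4.69 in wild type (1.11 ± 0.18, adjusted p = 0.00141). The groups did not overlap, and this gene was near 4.3 in unwounded ears, at 4.39 in cub and 4.30 in wild type. Clec4d, a lectin receptor of myeloid cells, was higher by 0.74 ± 0.14 (adjusted p = 0.00431). The abundant granule genes S100a8 and S100a9 pointed the same way without passing (0.76 ± 0.23, adjusted p = 0.0604, and 0.62 ± 0.21, adjusted p = 0.107). S100a8 passed without wild-type replicate 1, its highest wild-type array (adjusted p = 0.0106), and its adjusted p was as high as 0.252 in other alternative fits. The defining gene Ly6g was low in both groups, at 4.62 ± 0.05 and 4.40 ± 0.03. The count of neutrophil markers fell to 2 without wild-type replicate 3 and to 5 without cub replicate 1 or 3. The mean of the list ran from 6.75 to 6.89 in cub and from 6.25 to 6.56 in wild type.

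Macrophage markers had 9 higher and 0 lower of 26, with a median of 0.50, but no member was called without wild-type replicate 3 or without cub replicate 1, and 5 were without cub replicate 2. Mrc1, the mannose receptor of resident macrophages, read 9.65, 9.62 and 9.47 in cub and 9.15, 8.98 and 8.12 in wild type. Wild-type replicate 3 was well below its group, and the difference of 0.83 ± 0.19 (adjusted p = 0.014) was not called without it (adjusted p = 0.0791) or without cub replicate 1 (adjusted p = 0.0773). The list's mean was 7.40 to 7.90 over the wild-type arrays and 8.01 to 8.15 over the cub arrays. Among myeloid genes outside the list, chosen after their values were seen, the scavenger receptor Fcrls (0.96 ± 0.19, adjusted p = 0.0041) and the complement receptor C5ar1 (0.95 ± 0.19, adjusted p = 0.00551) stayed called without each array. C5ar1 read 7.92, 7.93 and 7.73 in cub and 7.17, 7.15 and 6.42 in wild type. Other myeloid genes did not hold in this way. C3ar1 (0.78, adjusted p = 0.0124) was lost without wild-type replicate 3, cub replicate 1 or cub replicate 2. Tlr7 (0.71, adjusted p = 0.0175) was lost without wild-type replicate 2, wild-type replicate 3 or cub replicate 1.

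Mast cells reside in the dermis and store proteases and histamine. Of 19 mast cell markers 10 were higher and 0 lower, with a median of 0.39. Cpa3, the mast cell carboxypeptidase, read 11, 10.97 and 10.92 in cub and 10.43, 10.34 and 9.46 in wild type (0.89 ± 0.18, adjusted p = 0.00702). The chymase Mcpt4 read 10.30, 10.31 and 10.26 against 9.70, 9.62 and 8.85 (0.90 ± 0.19, adjusted p = 0.00696) and was not called without wild-type replicate 3 (adjusted p = 0.0529). Cub arrays were close together and above all wild-type arrays in both genes, and wild-type replicate 3 was again the lowest. Without it 2 markers were called, against 6 without wild-type replicate 2, cub replicate 1 or cub replicate 2, and 5 without cub replicate 3. Kit, the receptor that defines these cells, did not pass (0.35 ± 0.11, adjusted p = 0.0953) but did without wild-type replicate 1 (adjusted p = 0.0182). In other alternative fits the adjusted p of Kit was as high as 0.386.

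Among 19 T cell markers 4 were higher and 0 lower, with a median of 0.10, and the one that led them, Sectm1a, an immunoglobulin-domain protein that acts on T cells, is made by other cell types. It read 8.96, 8.80 and 8.90 in cub and 7.57, 7.60 and 7.73 in wild type, 2.38-fold apart (1.25 ± 0.09, adjusted p = 2.43e-07), the lowest p of all named genes. Without cub replicate 1 it was the 1 member called, and 2 were called without wild-type replicate 3. The T cell receptor component Cd3e was at 8.58 in cub and 8.59 in wild type. None of 17 Langerhans and dendritic cell markers was called, with a median of 0.07, and Cd207, which defines Langerhans cells, was at 8.57 ± 0.02 and 8.50 ± 0.17. The pan-leukocyte gene Ptprc read 8.45, 8.34 and 8.44 in cub and 8.16, 8.10 and 8.12 in wild type and did not pass (0.28 ± 0.10, adjusted p = 0.102). None of 7 B cell and erythroid markers was called, with a median of −0.01.

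Endothelial and pericyte markers were a steadier group. Of 25 tested, 11 were higher and 0 lower, with a median of 0.30, and 8 to 11 were higher without each single array. In unwounded ears 9 of the 25 were called higher, beside 3.33% of all genes, with a median of 0.22. Emcn, a sialomucin of capillaries and veins, read 9.95, 9.75 and 10 in cub and 9.32, 9.34 and 9.36 in wild type (0.56 ± 0.09, adjusted p = 0.00134). Plvap, of the diaphragms of capillary pores, was at 8.62 ± 0.12 against 8.08 ± 0.11 (adjusted p = 0.000311), and the adhesion molecule Pecam1 at 8.90 ± 0.07 against 8.53 ± 0.07 (adjusted p = 0.00519). Of 13 Schwann cell and nerve markers, only the neurotrophin receptor Ngfr was called, and it was lower (8.68 ± 0.10 against 9.09 ± 0.07; −0.41 ± 0.08, adjusted p = 0.00526).

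Of 15 melanocyte markers 5 were higher in cub and 10 did not pass, and all 15 had differences above 0, with a median of 0.35. Without single arrays 4 to 7 were higher. Those called were Tyrp1, Dct, Ednrb, Pmel and Tyr. Tyrosinase, Tyr, makes the first step of melanin synthesis, Dct and Tyrp1 follow it, and the promoters of these 3 genes hold the letters CATGTG, the core of the element bound by the pigment cell factor MITF. They are shown here because the genes moved together. The runs cover 250 bases before to 50 after the start in RefSeq GRCm38.p6, 5′ to 3′ along the gene, with CATGTG, or CACATG where it lies on the other strand, in capitals.
Tyr, chr7:87493463-87493762, minus strand: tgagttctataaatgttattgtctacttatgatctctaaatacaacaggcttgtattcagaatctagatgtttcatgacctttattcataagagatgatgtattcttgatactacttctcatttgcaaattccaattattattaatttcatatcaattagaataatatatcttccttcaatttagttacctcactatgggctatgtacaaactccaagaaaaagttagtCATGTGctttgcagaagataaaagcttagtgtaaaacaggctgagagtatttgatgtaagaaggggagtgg
Tyrp1, chr4:80833963-80834262, plus strand: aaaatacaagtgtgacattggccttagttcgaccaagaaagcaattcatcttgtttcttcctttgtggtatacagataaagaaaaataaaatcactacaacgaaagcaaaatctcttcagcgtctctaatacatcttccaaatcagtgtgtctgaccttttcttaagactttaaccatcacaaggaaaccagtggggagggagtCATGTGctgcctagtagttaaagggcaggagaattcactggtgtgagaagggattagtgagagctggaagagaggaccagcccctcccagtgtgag
Dct, chr14:118052197-118052496, minus strand: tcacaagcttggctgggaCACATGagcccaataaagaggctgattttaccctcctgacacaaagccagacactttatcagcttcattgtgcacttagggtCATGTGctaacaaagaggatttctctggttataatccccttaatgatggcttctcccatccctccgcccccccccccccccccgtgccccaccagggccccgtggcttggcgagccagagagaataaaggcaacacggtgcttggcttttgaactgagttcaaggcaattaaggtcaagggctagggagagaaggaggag
The match begins 21 bases before the start in Tyr, 46 in Tyrp1, and 232 and 150 in Dct. The promoter of Ednrb holds none, and that of Pmel was not analysed here. Over all 32851 RefSeq promoters of the same length, 14.2% hold these letters on either strand. Of the promoters of genes higher at 2 h 10.4% do, beside 10.8% for tested genes not called. A match is thus a description of these windows only.

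All 3 genes were higher in cub at 2 h, and of them only Dct passed the test against each other time. Dct read 8.97, 8.48 and 8.72 in cub and 7.91, 7.78 and 7.73 in wild type (0.92 ± 0.12, adjusted p = 0.000164). Tyrp1 read 9.41, 8.75 and 9.14 against 8.22, 8.18 and 7.83 (1.02 ± 0.19, adjusted p = 0.00296), and Tyr 5.61, 5.18 and 5.33 against 4.92, 4.76 and 4.81 (0.54 ± 0.10, adjusted p = 0.00273). In all 3, cub replicate 1 was the highest array and replicate 2 the lowest of the cub arrays, and no cub array reached into the wild-type range. Ednrb, the endothelin receptor of melanocytes and their precursors, was higher by 0.71 ± 0.12 (adjusted p = 0.00124). The melanosome fibril gene Pmel (0.66 ± 0.16, adjusted p = 0.0207) was lost without wild-type replicates 2 and 3 and cub replicates 1 and 3, at adjusted p = 0.0531, 0.111, 0.162 and 0.0569. From 0 h to 2 h Tyrp1 rose by 1.68 in cub (adjusted p = 2.52e-06), against 0.33 in wild type (adjusted p = 0.37). Dct rose by 1.05 (adjusted p = 3.51e-06), against −0.03 (adjusted p = 0.946). Part of such a change can lie in the unwounded level. At 0 h Tyrp1 read 7.42, 7.30 and 7.53 in cub and 7.68, 7.93 and 7.63 in wild type. Tyr then read 4.61, 4.66 and 4.81 against 4.85, 4.94 and 4.96, and the groups of Dct overlapped. None of the 15 markers was called at 0 h, where the list's median was −0.02. Melanocytes sit in the dermis and hair follicles of the mouse ear; none of 30 hair follicle markers was called, 7 of 44 genes of hair keratin-associated proteins (Krtap, looked at after the values were seen) were higher and 0 lower, 10 of 22 fibroblast markers were higher, and the part of tissue content in these differences was not tested.

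Several imprinted transcripts were higher in cub, a group looked at after the values were seen. Meg3, a long non-coding RNA expressed from the maternal copy of chromosome 12, read 8.78, 8.68 and 8.55 in cub and 7.61, 7.75 and 7.92 in wild type (0.91 ± 0.11, 1.88-fold, adjusted p = 5.97e-05). The groups were apart by more than the width of either. Meg3 was also called higher in unwounded cub ears (0.45, adjusted p = 0.0157). The same maternal domain, between Dlk1 and Dio3, encodes a large cluster of microRNAs, and 40 of its microRNA rows were tested. Of these 4 were higher and 0 lower, while over all 296 rows of microRNA genes 4 were higher and 1 lower, so that every microRNA row called higher lay in this domain. All 4 rows read low, below the array medians of 6.37 to 6.46. Means in cub and wild type were 4.88 and 4.05 for Mir377 and 4.73 and 4.39 for Mir323. They were 5.02 and 4.73 for Mir485 and 4.06 and 3.85 for Mir382. The filter on low values, set at 6, dropped all 4, so that alternative did not test them. The mature products of the 4 are shown with the seed, bases 2 to 8, in capitals, from RefSeq GRCm38.p6; the 5p product of Mir485 is not shown.
mmu-miR-323-5p: aGGUGGUCcguggcgcguucgc
mmu-miR-323-3p: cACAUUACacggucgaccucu
mmu-miR-382-5p: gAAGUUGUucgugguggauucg
mmu-miR-382-3p: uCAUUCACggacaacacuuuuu
mmu-miR-485-3p: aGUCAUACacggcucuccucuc
mmu-miR-377-5p: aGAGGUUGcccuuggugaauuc
mmu-miR-377-3p: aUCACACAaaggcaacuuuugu
No seed is shared between them. Mir377, at chr12 between bases 109740515 and 109740574 from the first base of its 5p to the last base of its 3p product, read 5.28, 4.75 and 4.60 in cub and 4.03, 4.02 and 4.09 in wild type. It was higher by 0.83 ± 0.11 (adjusted p = 0.000124) and stayed called without each array. Mir323 was higher by 0.34 ± 0.08 (adjusted p = 0.0106) and was lost without cub replicate 1 (adjusted p = 0.0572). Mir485 (0.29 ± 0.07, adjusted p = 0.0315) and Mir382 (0.21 ± 0.05, adjusted p = 0.0298) were lost without wild-type replicates 1 and 3 and cub replicate 1, at adjusted p = 0.118, 0.147 and 0.156 and at 0.0794, 0.116 and 0.142, Mir485 also without cub replicate 2 (0.0803) and Mir382 without wild-type replicate 2 and cub replicate 3 (0.0604 and 0.0706). The hybridized sample was total RNA, and probes for such a row can report precursors as well as mature forms, so these rows are not levels of the mature products.

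Most of the domain did not pass. Over its 48 tested rows, 5 were higher and 0 lower, and the median was 0.04. The paternally expressed Dlk1 was at 8.62 ± 0.35 and 8.31 ± 0.23 (adjusted p = 0.413), and the maternal RNA Rian at 5.47 ± 0.06 and 5.23 ± 0.05 (adjusted p = 0.116). Of imprinted genes elsewhere, Zim1, a zinc finger gene, read 6.41, 6.34 and 6.31 against 5.48, 5.58 and 5.68 (0.77 ± 0.10, adjusted p = 0.000116). Its neighbour Peg3 was higher by 0.53 ± 0.10 (adjusted p = 0.00312), necdin, Ndn, by 0.65 ± 0.09 (adjusted p = 0.00021), and the receptor adaptor Grb10 by 0.49 ± 0.07 (adjusted p = 0.000245). These genes were picked because they differed, so their number says nothing about imprinted genes as a class.

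Of 50 cytokine and chemokine genes 5 were higher and 2 lower, with 38 differences above 0 and a median of 0.12. Il1b read 9.07, 9.20 and 9.42 in cub and 8.88, 8.81 and 8.58 in wild type, from 5.24 and 5.61 in unwounded ears, and did not pass (0.47 ± 0.24, adjusted p = 0.34), but did in the fit of the 6 arrays alone (adjusted p = 0.0442). The neutrophil attractants Cxcl1 (0.18 ± 0.12, adjusted p = 0.497) and Cxcl2 (0.40 ± 0.25, adjusted p = 0.446) had overlapping groups. Ccl8, a monocyte chemokine of skin, was at 9.35 ± 0.13 against 8.51 ± 0.19 (0.83 ± 0.17, adjusted p = 0.00655) and was lost without cub replicate 1 (adjusted p = 0.0527), when 2 of the 50 were higher. Without wild-type replicate 3 it was 3. Il33, an alarmin stored in nuclei of barrier cells, read 9.31, 9.25 and 9.49 in cub and 9.91, 9.96 and 10.01 in wild type and was lower (−0.61 ± 0.10, adjusted p = 0.00153). The epithelial chemokine gene Ccl28 read 5.89, 5.67 and 5.99 against 6.53, 6.53 and 6.65, also lower (−0.72 ± 0.11, adjusted p = 0.000796). None of 16 NF-kB feedback genes and none of 24 interferon-stimulated genes was called, with medians of 0.04 and −0.11.

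NRF2 is a transcription factor that answers oxidants by raising glutathione and detoxification genes and is held down by KEAP1. Of 40 targets and glutathione genes 3 were higher and 0 lower, beside 3.84% and 0.577% of all genes, with a median of 0.05. Hmox1, heme oxygenase, read 10.80, 11 and 10.36 in cub and 9.85, 9.81 and 9.73 in wild type (0.92 ± 0.15, 1.9-fold, adjusted p = 0.00101). It is also known to be raised by heme and by other stress factors. Ephx1, an epoxide hydrolase, was at 9.95 ± 0.06 against 9.62 ± 0.02 (0.33 ± 0.06, adjusted p = 0.00312). The peroxidase Gpx2 passed (0.56 ± 0.15, adjusted p = 0.0343) but was lost without any single array (adjusted p = 0.0735 to 0.129). The factor itself, Nfe2l2, was at 11.04 ± 0.05 and 10.89 ± 0.11 (0.16 ± 0.06, adjusted p = 0.162), and Keap1 at 8.27 ± 0.10 and 8.26 ± 0.08. The classical targets did not pass: Nqo1 differed by 0.09 ± 0.11, Gclc by −0.09 ± 0.08, Gclm by 0.04 ± 0.06, Slc7a11 by −0.04 ± 0.15, Txnrd1 by 0.12 ± 0.09 and Srxn1 by −0.04 ± 0.07 (adjusted p from 0.566 to 0.939). Of other stress genes, 5 of 29 heat shock and unfolded protein genes were higher and 28 had differences above 0. None of those 5 calls was made without cub replicate 1, and 1 was made without wild-type replicate 3, 2 without wild-type replicate 2 or cub replicate 2 and 3 without cub replicate 3. Of 24 hypoxia and glycolysis genes 3 were higher, 0 without wild-type replicate 3 or cub replicate 1 and 1 without wild-type replicate 1 or 2.

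The genes lower in cub were fewer, and several were enzymes. Serpina3b, a serine protease inhibitor of the epidermis, read 8.78, 10.47 and 9.47 in cub and 11.51, 11.16 and 11.25 in wild type. The cub arrays were spread widely but lay below all wild-type arrays, a difference of −1.73 ± 0.33, or 3.33-fold lower (adjusted p = 0.0033). Inmt, which methylates small amines, read 6.79, 7.76 and 6.73 against 8.61, 8.23 and 8.24 (−1.27 ± 0.19, adjusted p = 0.000682). The alcohol dehydrogenase Adh6b read 7.87, 8.24 and 8.06 against 9.22, 9.13 and 9.19 (−1.12 ± 0.12, adjusted p = 2.08e-05), but its other row, at a level of 4.5, differed by 0.03. Adh6b was also the 1 member lower among 24 retinoid metabolism genes, of which none was higher. Lypd6, a modulator of Wnt signalling, was at 7.37 ± 0.28 against 8.32 ± 0.11 (adjusted p = 0.000736), and Lhpp, a phosphatase, at 8.30 ± 0.33 against 9.26 ± 0.27 (adjusted p = 0.00273). Also lower were the phosphodiesterase gene Pde1b (−0.87 ± 0.12), the guanylin gene Guca2a (−0.86 ± 0.14) and the noradrenaline transporter gene Slc6a2 (−0.73 ± 0.14), with adjusted p = 0.000179, 0.00129 and 0.00327.

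Cytochrome P450 genes, looked at as a family after the values were seen, held 3 higher and 5 lower of 86, beside 3.84% and 0.577% of all genes. Cyp2b10, a xenobiotic enzyme, read 10.49, 10.22 and 10.09 in cub and 10.91, 10.70 and 10.78 in wild type (−0.53 ± 0.09, adjusted p = 0.00212). Of 5 Cyp2b genes tested 3 were lower, and transcripts of such close relatives can cross-hybridize on an array. Of enzymes of steroid synthesis, Cyp11a1, which makes pregnenolone, was higher at 7 ± 0.09 against 6.18 ± 0.40 (0.82 ± 0.15, adjusted p = 0.00265). Cyp17a1, which acts after it, was lower (−0.49 ± 0.13, adjusted p = 0.0281) and was lost without wild-type replicates 1 and 3 and cub replicates 1 and 3, at adjusted p = 0.0975, 0.146, 0.162 and 0.0629.

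The remaining lists had few calls, to be read beside 3.84% of all genes higher and 0.577% lower. Wnt, BMP and TGF-beta signalling genes had 4 higher and 2 lower of 41, with 1 higher without wild-type replicate 3 or cub replicate 1 and 2 without wild-type replicate 2 or cub replicate 3. The lead among them, the Wnt inhibitor Sfrp4, was at 6.98 ± 0.11 against 6.24 ± 0.15 (0.74 ± 0.12, adjusted p = 0.00084). Cell division genes had 1 higher of 28, circadian clock genes 1 higher and 1 lower of 16, cholesterol synthesis genes 2 higher of 20, metallothioneins and zinc transporters 1 higher of 14 and fatty acid fuel switch genes 1 higher of 13. Without cub replicate 1, only the 1 member of the zinc list, the transporter gene Slc39a14 (0.47), was still called higher among these 5 lists. Over all 40 lists, 907 genes were tested and 171 were called (18.9%, beside 4.41% of all genes), 160 higher and 11 lower. The count was 85 without wild-type replicate 3 and 88 without cub replicate 1. Members and lists were chosen with earlier results of these data known, so the share called is not separate support for a difference.

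Values at the other times came from separate arrays and show which 2 h differences were present in unwounded ears. Of the 765 genes higher at 2 h, 89.3% were also above 0 at 0 h, where 46.3% of all genes were, and 225 were called higher there (3.33% of all genes, and 5.25% called in either direction). At 15 min 67.7% were above 0, beside 58.5% of all genes, and 47 were called higher (1.57% of all genes, 3.45% in either direction). At 24 h 82.0% were above 0, beside 50%, and 127 were called higher (2.24% of all genes, 5.68% in either direction). Of the 115 genes lower at 2 h, 40 were called lower at 0 h, 26 at 15 min and 32 at 24 h, where 1.93%, 1.88% and 3.44% of all genes were. The median difference of the genes higher at 2 h was 0.40 then, and 0.20, 0.08 and 0.14 at 0 h, 15 min and 24 h; the first is the value that chose them. Krt77, Sectm1a and Epgn were called higher at all 4 times. Sectm1a differed by 1.19 at 0 h, 1.12 at 15 min and 0.83 at 24 h. Among the lists, 8 of 19 elastic fibre genes and 5 of 22 fibroblast markers were called higher at 0 h, beside 3.33% of all genes. So were 6 of 37 dermal proteoglycan and glycoprotein genes, and none of 15 melanocyte markers. Of 22 fibrillar collagen and processing genes, 2 were called higher and 1 lower at 0 h, beside 3.33% and 1.93% of all genes.

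**Figure D3:**
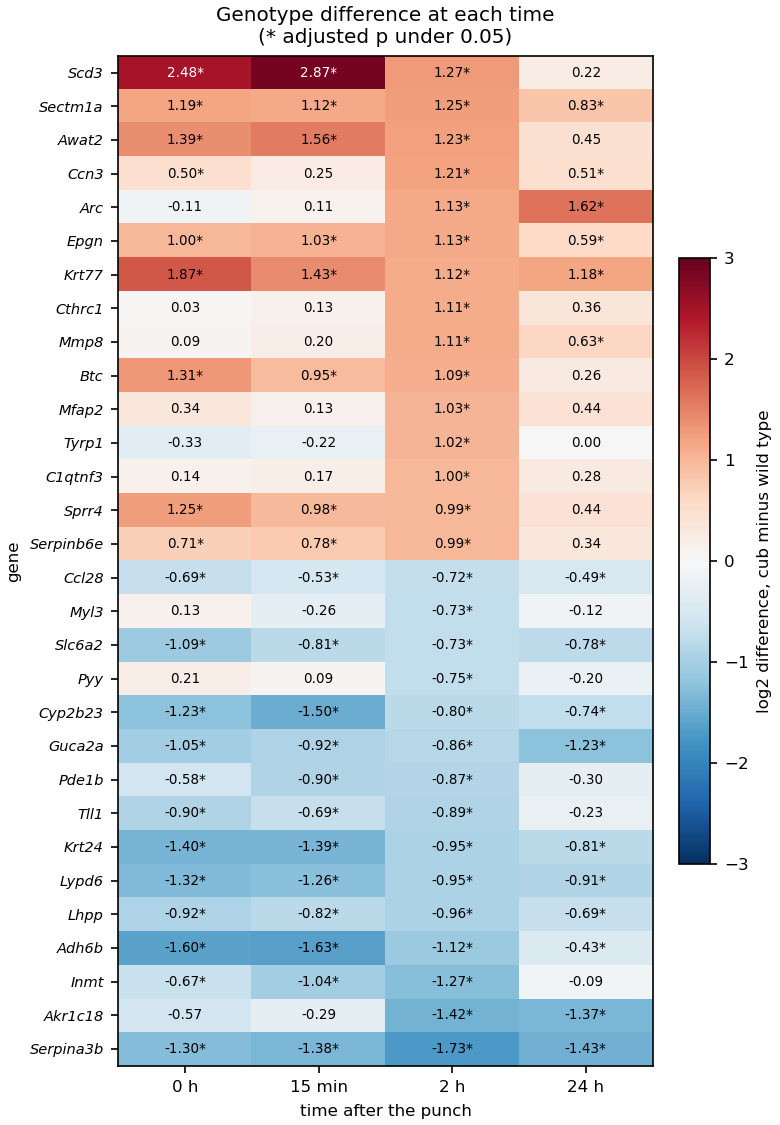
Log2 difference, cub minus wild type, at 0 h, 15 min, 2 h and 24 h (x axis) for the 15 genes most higher and the 15 most lower at 2 h (y axis), with a star where the adjusted p was under 0.05. Sectm1a and Epgn are starred at each time, and Cthrc1, C1qtnf3 and Tyrp1 only at 2 h.

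Of the genes called at 2 h, 526 were called at no other time, but a call at 1 time and not at another does not show that they differ. The test of the 2 h difference against the 0 h difference called 26 genes (0.13%), 21 higher (0.105%) and 5 lower (0.0251%), and 12 of the 526 were among them. Single arrays moved this count, which came to 5, 2 and 4 when wild-type replicates 1, 2 and 3 were left out in turn, and to 2, 45 and 6 for cub replicates 1, 2 and 3. Tests against 15 min and 24 h called 327 (1.64%) and 136 genes (0.682%), with 227 (1.14%) and 106 (0.532%) higher. In all, 7 genes called at 2 h passed against each of the 3 other times, namely Cthrc1, C1qtnf3, Dct, Mir377, Igfbp2, Cldn10 and Krtap15. Against 0 h, the call of Krtap15 was lost without each of the 6 arrays at 2 h (adjusted p = 0.0512 to 0.13). Those of C1qtnf3, Igfbp2 and Cldn10 were lost without any but cub replicate 2, at adjusted p of up to 0.105, 0.14 and 0.14. Dct was lost without wild-type replicates 2 and 3 and cub replicate 1, Mir377 without each wild-type array, and Cthrc1 without cub replicate 1, at adjusted p of up to 0.077, 0.0662 and 0.077. Cthrc1 differed by 0.03 at 0 h, 0.13 at 15 min and 0.36 at 24 h, against 1.11 at 2 h, and C1qtnf3 by 0.14, 0.17 and 0.28, against 1.00. Cthrc1 rose by 0.98 from 0 h to 2 h in cub (adjusted p = 5.68e-06) and not by the test in wild type (−0.10, adjusted p = 0.752). Igfbp2, a binding protein of insulin-like growth factors, was at 8.76 ± 0.10 against 8.31 ± 0.09 at 2 h, and Cldn10, a tight junction protein, at 7.92 ± 0.11 against 7.45 ± 0.08.

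In the other direction, Pdk4, a kinase that holds back the oxidation of pyruvate in the mitochondria, differed between the genotypes before the wound and was not called at 2 h. Unwounded ears were at 10.05 in cub and 7.36 in wild type, and at 2 h the arrays read 9.60, 10.25 and 9.50 in cub and 9.50, 9.25 and 9.79 in wild type. The groups then overlapped (0.27 ± 0.22, adjusted p = 0.603). Wild type had risen by 2.16 (adjusted p = 9.69e-07) and cub did not pass (−0.27, adjusted p = 0.529). The change of the genotype difference was −2.43 (adjusted p = 0.00359), and it kept its call without each single array. Ucp3, a mitochondrial carrier of the same fuel switch, ran alike, with 7.18 in cub and 5.83 in wild type at 0 h and 7.04 ± 0.15 and 6.93 ± 0.32 at 2 h. Mill1, a relative of MHC class I, met the wild-type level from the other side: it fell by 0.95 in cub (adjusted p = 5.65e-05) and changed by 0.16 in wild type (adjusted p = 0.618), ending at 8.11 ± 0.10 and 8 ± 0.14. The call for Ucp3 or Mill1 was lost without any array but cub replicate 2, at adjusted p of up to 0.14 and 0.105.

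**Figure D4:**
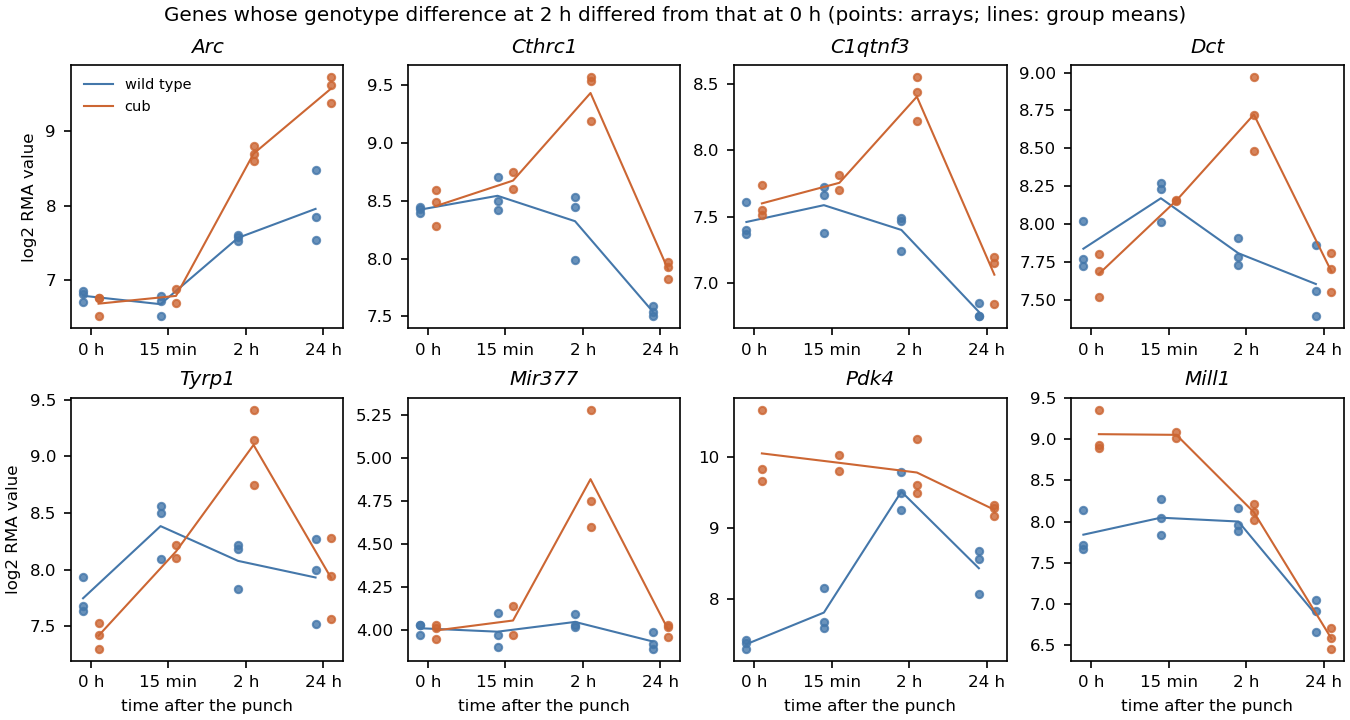
Log2 RMA levels (y axes) of 8 genes at 0 h, 15 min, 2 h and 24 h (x axes), with points for arrays and lines through group means, 3 arrays a group and 2 for cub at 15 min. The times are evenly spaced and not to scale. Cthrc1, C1qtnf3, Dct, Tyrp1 and Mir377 were called higher in cub at 2 h and at no other time, Arc at 2 h and 24 h, and Pdk4 and Mill1 were called at 0 h and not at 2 h.

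Because cub is a congenic strain, genes beside Rhbdf2 on chromosome 11 were counted. Of the 100 tested genes nearest to it, 50 on each side, 5 were higher and 0 lower at 2 h, or 5%, beside 4.41% of all genes. These were Otop3, Trim47, Jmjd6, Sec14l1 and C1qtnf1.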

How the data were processed

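Total RNA of ear tissue was hybridized to Affymetrix mouse gene arrays, 1 array a sample. Per the submitters' processing notes, the authors used Affymetrix Expression Console 1.1 and RMA, and the deposited values are log2 levels; the build and summarization level are not given in the sources used here. RMA quantile-normalizes arrays together, so a shift of all genes is removed. Of 35556 rows, 21789 had 1 gene symbol, 1621 several and 12146 were not named here; 21698 matched RefSeq GRCm38.p6 by gene ID. The row with the highest mean stood for each of 999 genes with several rows. Array medians were 6.37 to 6.46. Precision is limited by how many arrays a group has.

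The fit took all 23 arrays (limma 3.58.1, lmFit and eBayes, under R 4.3.3), with 1 mean per group, 15 residual and 5.61 prior degrees of freedom. Tests were two-sided, with Benjamini-Hochberg adjustment over all genes within each of 9 comparisons. The script was tested on simulated data. Where replicates did not come from separate mice, p-values measure only the spread between samples. Same-numbered arrays at 2 h had deviations that correlated at 0.18, 0.26 and −0.02, and differently numbered arrays at −0.293 to 0.128. The values 0.18 and 0.26 were above the limit of 0.1 set for pairing, so pairing by number is not excluded. The main fit did not take numbers as pairs. With the replicate number as a block, 4 genes were called for 2 h minus 0 h, against 26 without it.

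Genes were named by rule: the 15 with the largest difference in each direction among called genes whose groups did not overlap, up to 4 per list, 6 in each direction for the 2 h minus 0 h difference, and 17 fixed genes, of which 16 were tested. A further 65 were added after their values were seen. The members and lists were chosen with earlier results of these data known. Alternatives varied scaling, the filter on low values, probe sets, moderation, weights, blocks and single arrays. The authors' own test was not run.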

Additional observations from a re-analysis of the deposited data

Results flagged for a closer look

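The genotype difference at 2 h departed from that at 0 h, by limma's test of the difference itself, for each gene below. Of genes whose difference grew, Tyrp1 changed by 1.35 ± 0.27 (adjusted p = 0.0455), Arc by 1.24 ± 0.21 (adjusted p = 0.0268), Dct by 1.08 ± 0.17 (adjusted p = 0.0227) and Cthrc1 by 1.08 ± 0.17 (adjusted p = 0.0214). C1qtnf3 changed by 0.86 ± 0.15 (adjusted p = 0.0268), Mir377 by 0.84 ± 0.15 (adjusted p = 0.029) and Tyr by 0.77 ± 0.14 (adjusted p = 0.0374). Smaller changes were those of Cldn10 (0.63 ± 0.12, adjusted p = 0.039), Igfbp2 (0.56 ± 0.11, adjusted p = 0.039) and Krtap15, a hair keratin-associated protein gene (0.52 ± 0.10, adjusted p = 0.0383). In the other direction Pdk4 changed by −2.43 ± 0.32 (adjusted p = 0.00359), Ucp3 by −1.23 ± 0.24 (adjusted p = 0.039), Mill1 by −1.11 ± 0.19 (adjusted p = 0.0268), the MHC gene H2-Q5 by −0.73 ± 0.13 (adjusted p = 0.0268) and Shisa7 by −0.50 ± 0.08 (adjusted p = 0.0268).

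H2-Q5 fell by 0.41 from 0 h to 2 h in cub (adjusted p = 0.00388) and rose by 0.32 in wild type (adjusted p = 0.0324). When each of the 6 arrays at 2 h was left out in turn, Pdk4 kept its call each time and Krtap15 lost it each time (adjusted p = 0.0512 to 0.13). Tyrp1, Arc, C1qtnf3, Tyr, Igfbp2, Cldn10, Ucp3 and Mill1 kept it only without cub replicate 2. H2-Q5 and Shisa7 kept it without wild-type replicate 1 or cub replicate 2, Dct without either of these or cub replicate 3, and Mir377 without any 1 of the cub arrays. Cthrc1 lost it only without cub replicate 1 (adjusted p = 0.077).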

How the results depend on the processing

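Of 188 named 2 h results, 148 were called and 83 of these kept their call in every alternative run; 65 lost it in at least 1, and 10 of the 40 not called gained it. Without single arrays, 329 to 722 genes were called at 2 h, 85 to 144 of the listed genes, and 2 to 45, 16 to 498 and 40 to 221 genes for the 2 h difference minus that at 0 h, 15 min and 24 h. Array weights gave 1590 genes at 2 h, 1804 at 0 h, 218 at 15 min, 173 for 2 h minus 0 h and 284 for 2 h minus 24 h. With the replicate block 789 genes were called at 2 h, 762 of them shared with the fit without it, along with 164 listed genes, 414 genes at 15 min, 4 for 2 h minus 0 h (Arc, Cthrc1, Dct and Pdk4) and 111 for 2 h minus 15 min; wild-type replicates 1 and 2 correlated best with their own number and replicate 3 with cub replicate 1. Testing every probe set gave 2 and 64 genes for 2 h minus 0 h and minus 24 h. Without moderation the 3 differences of differences had 1, 180 and 52. Scaling by the share of true nulls gave 1461 at 15 min and 1127 for 2 h minus 15 min. Near Rhbdf2, 3 genes were called among 25 on each side and 13 among 100. The cause of these changes was not tested.

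Signs turned only for genes that were not called. Centring gave −0.023 for Egfr, −0.013 for Keap1 and −0.02 for Krt14. Quantile normalization gave −0.058, −0.046 and −0.034 for these 3 and −0.013 for Gclm, and array weights gave −0.0135, −0.0082 and −0.0102. Without single arrays, Egfr ran from −0.032 to 0.043, Keap1 from −0.037 to 0.063, Krt14 from −0.017 to 0.023, Nqo1 from −0.043 to 0.18, Slc7a11 from −0.058 to 0.0017 and Srxn1 from −0.11 to 0.0033.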
